A study of Mus musculus with 3 samples.

Results

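The 45 genes described here build, turn over and steer the actin cytoskeleton, and were chosen by name alone, as the rows of the deposited gene tables whose symbol stood on a fixed list. The list matched 46 rows of the 55536 genes in those tables, because the symbol Myl12b stands on 2 identifiers. It holds both cytoplasmic actins, the proteins that bind actin monomers, the Arp2/3 complex and its activators, coronins, bundling, elongating and capping proteins, the ERM proteins, small GTPases with their Dock exchange factors, and nonmuscle myosin II.

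Polyadenylated RNA was sequenced from mouse regulatory T cells (Tregs, the T cells that keep other immune cells in check and whose identity rests on the transcription factor Foxp3) that had gone through inflammation, at 12 weeks of age. All libraries come from 1 biosample of 1 donor, labelled as primary inflammation-experienced Tregs that originated from activated Tregs. There were 3 libraries, labelled technical replicates 1 to 3 of biological replicate 1, so they form 1 group without a control. Every SD given here is a spread between libraries of 1 biosample and says nothing about variation between mice. Sex was not collected, and strain, genotype, inflammatory treatment and sorting gate are not given in the sources used here. Questions that this design allows are how abundant each gene was, which of several related genes a Treg used most, and how far the libraries differed.

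Libraries 1 to 3 held 35652707, 31665170 and 37810591 expected counts, which are reads shared out among genes by a model. Levels are in TPM, a transcript abundance corrected for length and scaled to a fixed sum, and detected means 1 TPM or more in each of the 3 libraries. All 6 genes of the Treg list were detected, led by Cd3e, a gene of T cells in general, at 1119 ± 28.7 TPM. Foxp3, named with its value known, averaged 97.6 ± 1.04 TPM (SD, n = 3 libraries). None of 7 myeloid, 5 platelet or 5 stromal markers was detected. Their highest genes were Lyz2 at 1.36 TPM, Itga2b at 0.71 TPM and Col1a1 at 0.557 TPM, and Cd14, Ppbp and Gp1bb were at 0 in every library. Of 5 B cell markers 4 were detected, with Cd79b highest at 30.4 TPM, and of 6 epithelial markers Epcam alone at 32.1 TPM. Library 3 stood apart by transcripts of a secretory gland: a list of 10 such genes took 3.49% of its expected counts, against 0.000303% in library 1 and 0.000733% in library 2. In TPM that list took 5.92% of library 3, led by Bpifa2 with 39890.2 TPM there, and the TPM values of a library share 1 total, so library 3 values below carry that offset. In such bulk RNA, fewer cells of a type and less RNA per cell cannot be told apart.

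Actin filaments grow from a pool of monomers that thymosins hold in reserve and profilin delivers to growing ends. The Arp2/3 complex branches new filaments off old ones when WASp or WAVE proteins switch it on, and these answer to the small GTPases Cdc42 and Rac, while RhoA drives formins and myosin II. In T cells this machinery shapes the contact with antigen-presenting cells and drives migration, and several of its parts exist in a form made mainly by blood cells beside a form made by most cells.

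Several of these genes are close copies, and the stretches that tell them apart decide which gene a read is given to. The sequences shown are coding bases from the GENCODE M21 transcripts on mm10, printed 5′ to 3′ along the gene. The first 60 coding bases of the 2 cytoplasmic actins, both on minus strands, at chr5:142905627-142905686 for Actb and chr11:120348032-120348091 for Actg1, are shown because the proteins differ only near this end. Capitals mark the 9 bases at which they differ.
Actb-201: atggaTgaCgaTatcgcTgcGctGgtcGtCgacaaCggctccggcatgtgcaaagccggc
Actg1-204: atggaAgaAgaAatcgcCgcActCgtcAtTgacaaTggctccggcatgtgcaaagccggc
Over their whole coding sequence of 1125 bases, Actb and Actg1 were 88.6% identical, and 30 windows of 50 bases occurred in both.

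Rac2 and Rac1 part most at the end of the coding sequence, which encodes the tail that guides each GTPase to membranes. The last 60 coding bases, at chr15:78561911-78561970 for Rac2 and chr5:143506978-143507037 for Rac1, both on minus strands, differ at 27 bases, in capitals.
Rac2-201: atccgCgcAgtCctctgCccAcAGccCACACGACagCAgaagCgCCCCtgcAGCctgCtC
Rac1-201: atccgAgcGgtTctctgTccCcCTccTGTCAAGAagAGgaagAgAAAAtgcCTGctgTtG
The coding sequences of 576 bases each were 77.1% identical and shared no window of 50 bases, so no stretch of coding sequence of that length occurs in both genes.

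Cdc42 is 1 gene with 2 alternative last coding exons, the ubiquitous form and the form known from brain. Both exons hold 87 coding bases on the minus strand, at chr4:137321106-137321192 for the ubiquitous form Cdc42-202 and chr4:137322533-137322619 for the brain form Cdc42-201, and capitals mark the 30 bases that differ.
Cdc42-202: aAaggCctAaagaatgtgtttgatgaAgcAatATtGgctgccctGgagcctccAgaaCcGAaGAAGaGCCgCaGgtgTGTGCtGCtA
Cdc42-201: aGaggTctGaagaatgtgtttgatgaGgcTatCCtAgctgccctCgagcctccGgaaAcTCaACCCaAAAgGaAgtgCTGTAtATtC

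Other members differ in splicing. The Rac1-202 transcript carries a coding exon of 57 bases that Rac1-201 lacks, known from the splice form Rac1b, at chr5:143509597-143509653 on the minus strand. Myl6-201 carries 36 coding bases that Myl6-205 lacks, at chr10:128492710-128492745 on the minus strand. In the lines that follow, capitals mark these bases, and 12 coding bases of the transcript stand on either side.
Rac1-202: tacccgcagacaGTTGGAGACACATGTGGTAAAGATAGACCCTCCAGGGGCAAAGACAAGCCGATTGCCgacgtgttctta
Myl6-201: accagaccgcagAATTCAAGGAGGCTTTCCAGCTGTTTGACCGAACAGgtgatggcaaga

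The actin cytoskeleton genes were abundant as a group. All 46 rows were detected, with a median of 408 TPM, while the 10494 protein-coding genes detected in all libraries had a median of 31.4 TPM. At least 100 TPM was reached by 37 of the 46, and by 17.5% of detected coding genes. At least 1000 TPM was reached by 10 of the 46, and by 0.858% of detected coding genes. Together the 46 rows held 4.83%, 5.06% and 4.55% of the TPM on genes in libraries 1 to 3, or 4.81% ± 0.254 (SD, n = 3 libraries), lowest in library 3, where the gland list took 5.92%. Without length correction they held 3.76% of expected counts. The list was drawn up with earlier results of these data known, so its high rank is a description.

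**Figure D1:**
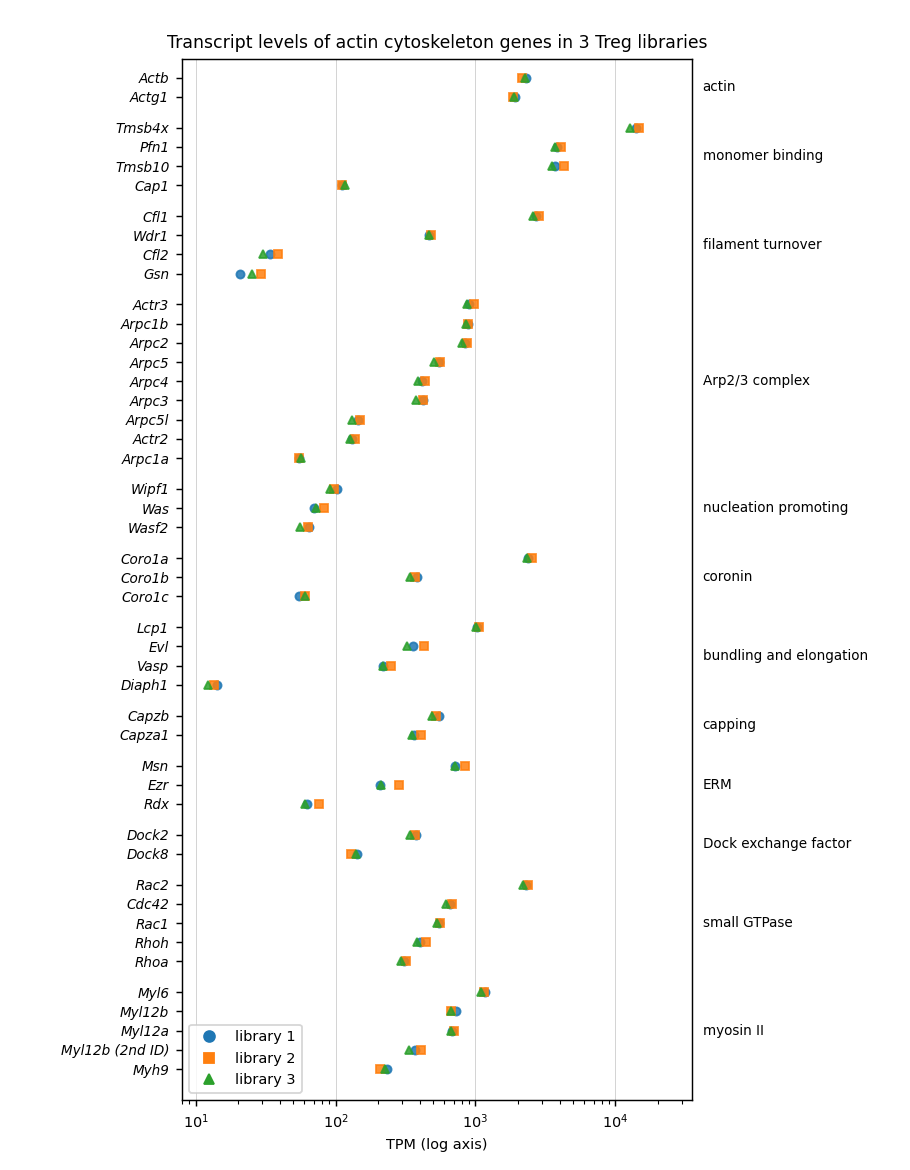
TPM of each actin cytoskeleton gene in libraries 1, 2 and 3 (points, log axis), grouped by role and ordered by mean within a role. The points of a gene lie close together against a range over genes that runs from Diaph1 at 13.3 TPM to Tmsb4x at 13828 TPM.

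Among the proteins that bind monomers, Tmsb4x, which encodes thymosin beta 4, the main store of unpolymerised actin, had the highest mean level of all detected coding genes. This X-linked gene (ENSMUSG00000049775.16, chrX:167207093-167209315, minus strand) had 14039, 14769 and 12676 TPM in libraries 1 to 3. It alone made up 28.9% ± 0.749 of the TPM of the 46 rows. Tmsb10, its paralog, had 3703, 4270.5 and 3516 TPM, and Tmsb4x was 3.61-fold higher on mean TPM. Pfn1, encoding profilin, which hands monomers to growing ends, had 3811, 4093 and 3726 TPM. All 3 genes were highest in library 2 and lowest in library 3 in TPM. In expected counts scaled between libraries they were again highest in library 2, but Pfn1 and Tmsb10 were lowest in library 1. Cap1, encoding a cyclase-associated protein that recharges monomers with nucleotide, was much lower at 111, 112 and 116 TPM.

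Of the actins themselves, Actb (ENSMUSG00000029580.14, chr5:142903115-142906754, minus strand) had 2309, 2156 and 2245 TPM, and Actg1 (ENSMUSG00000062825.15, chr11:120345690-120348542, minus strand) had 1922, 1852 and 1890.2 TPM. The ranges of the 2 genes did not overlap, and the difference in log2(TPM + 1) was 0.24 ± 0.02 (SD, n = 3 libraries), higher for Actb. Its sign and size depended on how transcripts were counted. The difference was -0.07 without length correction and -0.54 on the leading protein-coding transcript of each gene alone. Leading in that setting means holding the most expected counts. In the M4 counts, a further deposited gene table, it was 3.82 per kilobase in favour of Actb. Actb has shorter models beside its full one: Actb-201 of 1920 bases took 49.3%, 51.5% and 49.2% of its TPM, and Actb-208 of 930 bases took 30.0%, 29.6% and 31.5%. Muscle actins added little: of all actin TPM, Actg2 held 0.523% ± 0.220 and Acta1, Acta2 and Actc1 each held under that.

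Set against one another per length, thymosins and profilin summed to 21552, 23133 and 19919 TPM, and Actb with Actg1 to 4231, 4008 and 4135 TPM. The ratio was 5.09, 5.77 and 4.82 in libraries 1 to 3. These are ratios of transcripts and say nothing of protein levels.

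Filament turnover was led by Cfl1, encoding the general cofilin, which severs aged filaments, at 2692, 2863 and 2587 TPM. Its muscle form Cfl2 had 34.3, 38.8 and 30.3 TPM, and Dstn, a further member of the family, had 24.7, 24.2 and 24.3 TPM. Cfl1 held 97.9% ± 0.0487 of the TPM of these 3 genes. Wdr1, whose product helps cofilin to disassemble filaments, had 468, 478 and 466 TPM, the lowest coefficient of variation of the set at 1.35%. Gsn, encoding gelsolin, a calcium-dependent severing protein, was among the lowest at 20.7, 29.4 and 25.4 TPM.

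The Arp2/3 complex holds 1 copy each of ARP2, ARP3 and ARPC1 to ARPC5, and its transcripts were not equal. Actr3, encoding ARP3, had 894, 970.5 and 868 TPM, and Actr2, encoding ARP2, had 132, 138 and 127 TPM. Actr3 was 6.90 ± 0.125 times as high as Actr2 (SD, n = 3 libraries), the only one of 33 compared pairs in which the gene named second in the comparison was higher in all libraries. In M4 counts per kilobase the difference of Actr2 from Actr3 was -0.22, against -2.78 in log2(TPM + 1), so the size of the gap depends on the table used. Of the 50-base windows of Actr3-202, the Actr3 transcript with the most expected counts, 49.8% also occur in another gene. The pseudogene Gm8822 led these and itself had 25.9 TPM, so reads there may be split. Summed over paralogs, the subunits stood at 931 ± 22.3 TPM for ARPC1, 837 ± 37.8 TPM for ARPC2, 407 ± 28.8 TPM for ARPC3, 414 ± 25.5 TPM for ARPC4 and 679 ± 35.3 TPM for ARPC5. ARPC3 and ARPC4 did not differ beyond their spread. Within ARPC1, Arpc1b, the form that blood cells depend on, had 890.5, 888 and 849 TPM, and Arpc1a had 55.2, 54.5 and 56.3 TPM. Arpc1b thus held 94.1% ± 0.239 of ARPC1 transcripts. Within ARPC5, Arpc5 had 548, 556 and 508 TPM and Arpc5l had 146, 149 and 131 TPM, a share of 79.1% ± 0.364 for Arpc5.

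Of the activators of Arp2/3, Was, Wipf1 and Wasf2 averaged less than Actr2, which at 132 TPM was the lowest of the complex's subunits with paralogs summed, while Hcls1, a relative of cortactin, averaged 156 TPM. Was, the X-linked gene of WASp, whose loss causes Wiskott-Aldrich syndrome in humans, had 70.5, 82.9 and 72.8 TPM. Its general relative Wasl, encoding N-WASP, had 28.7, 32.0 and 33.0 TPM. Wipf1, encoding the partner that stabilises WASp, had 102, 96.8 and 92.0 TPM, and Wipf2 had 2.91, 1.45 and 3.17 TPM. For the WAVE branch, Wasf2, encoding WAVE2, had 64.9, 64.0 and 56.1 TPM, and the neuronal form Wasf1 was listed at 0 in library 2 and at no more than 0.21 TPM elsewhere. Nckap1l, encoding the blood form of the NAP1 subunit of the WAVE complex, had a mean of 114 TPM against 13.3 TPM for Nckap1.

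Coronins, which protect and remodel branched filaments, were dominated by Coro1a (ENSMUSG00000030707.15, chr7:126699773-126707787, minus strand), the blood form that naive T cells need to survive. Coro1a had 2377, 2549 and 2348 TPM, Coro1b had 380.3, 369.7 and 342 TPM, and Coro1c had 55.0, 60.2 and 60.6 TPM. Coro1a held 85.1% ± 0.553 of the TPM of the 3 genes.

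Among proteins that bundle, elongate or cap filaments, Lcp1, encoding the leukocyte bundling protein L-plastin, had 1030.4, 1059 and 1015 TPM. Its relative Pls3 had 4.62, 3.79 and 3.96 TPM, so Lcp1 held 99.6% of the TPM of the 2. The Ena/VASP proteins keep filament ends growing, and here Evl had 360.4, 431 and 324 TPM, Vasp had 219, 247 and 219 TPM, and the remaining member Enah a mean of 0.847 TPM. The formin gene Diaph1 was the lowest of the 46 rows at 14.2, 13.6 and 12.3 TPM and did not stand apart from Diaph2, which had 13.7, 16.4 and 13.8 TPM. Capping protein closes filament ends as a dimer, and its subunit genes Capza1 and Capzb had 375.7 ± 28.9 and 522 ± 28.8 TPM.

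ERM proteins tie filaments to the plasma membrane. Moesin led them, with 709, 837 and 717 TPM for its X-linked gene Msn. Ezr, encoding ezrin, had 209, 283 and 211 TPM, and Rdx, encoding radixin, had 62.1, 76.7 and 60.5 TPM. Msn held 71.6% ± 1.44 of their sum, Ezr 22.1% ± 1.33 and Rdx 6.29% ± 0.151, and all 3 were highest in library 2.

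Small GTPases switch the machinery on. Rac2, the blood form of Rac (ENSMUSG00000033220.7, chr15:78559167-78572783, minus strand), had 2288, 2383 and 2175 TPM, and Rac1 (ENSMUSG00000001847.14, chr5:143503634-143528036, minus strand) had 546, 557 and 529.7 TPM. Cdc42, which acts on WASp, had 655, 677 and 616 TPM. Rhoh, a GTPase of blood cells that lacks the usual hydrolysis of GTP, had 401, 444 and 382 TPM, and Rhoa had 306, 319 and 292 TPM. The exchange factors that load Rac and Cdc42 in lymphocytes followed: Dock2, which acts on Rac, had 377, 367 and 340.7 TPM, and Dock8, which acts on Cdc42 and is lost in a human immunodeficiency, had 142, 128 and 140.2 TPM. Their relative Dock1 averaged 0.107 TPM.

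Nonmuscle myosin II pulls on filaments, and its heavy chain gene Myh9 had 233, 209 and 225 TPM, while Myh10, which encodes another heavy chain, had 1.21, 2.48 and 0.80 TPM. Of its light chains, Myl6 had 1166, 1159.6 and 1089 TPM, Myl12a had 678, 706 and 664 TPM, and Myl12b had 728, 668 and 668 TPM. Myl12a and Myl12b changed order between libraries. Their coding sequences were 96.5% identical and shared 174 windows of 50 bases. A further row under the symbol Myl12b (ENSMUSG00000117098.1, chr17:70974119-71002208, minus strand) spans both genes and took 371, 406 and 333 TPM. Its transcript with the most expected counts, Myl12b-205, shares 93.9% of its windows with transcripts of other identifiers, so how reads were split over the 3 rows is uncertain.

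In 16 pairs, a gene classed here as the blood form was set against a related gene classed as general. These classes are labels and were not measured here, and Was against Wasf2 sets WASp against a WAVE protein. The pairs were chosen with earlier results of these data known. The blood form was higher in all 3 libraries in 16 of 16 pairs, by a median of 2.88 and a range of 0.28 to 8.36 in log2(TPM + 1). A pair counted as apart if its difference kept 1 sign in every library, the TPM ranges of its genes were separate, and so were the deposited bounds within each library. Those bounds enclosed the posterior mean TPM of all 46 rows in each library, but the TPM itself of only 6 to 7 of them, so they belong to the posterior mean. By this rule 15 of the 16 were apart, Was against Wasf2 being the exception at 0.28 ± 0.15. That pair counts as apart if the bounds are set aside, a setting chosen after seeing the data. Over 3 libraries an exact permutation test that flips signs, two-sided, cannot give a p below 0.25, and the smallest value adjusted over all 33 pairs was 0.266, so no pair could pass 0.05 and the counts describe these libraries.

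The pairs differed widely in size. The largest differences were those of Dock2 over Dock1 at 8.36 ± 0.06, Lcp1 over Pls3 at 7.66 ± 0.14 and Coro1a over Coro1c at 5.35 ± 0.08 (log2 differences with SD, n = 3 libraries). Wipf1 over Wipf2 stood at 4.84 ± 0.43, and Hcls1, a relative of cortactin in blood cells, over Cttn, the cortactin gene itself, at 4.56 ± 0.31. In all of these but the Coro1a pair the general gene averaged no more than 5.75 TPM. Arpc1b over Arpc1a at 3.96 ± 0.06, Msn over Rdx at 3.49 ± 0.06, Nckap1l over Nckap1 at 3.02 ± 0.25 and Coro1a over Coro1b at 2.73 ± 0.08 followed, all with a general form above 10 TPM. Rac2 over Rac1 stood at 2.06 ± 0.03, Msn over Ezr at 1.69 ± 0.11, Was over Wasl at 1.24 ± 0.12, and Arhgdib, encoding a GTPase inhibitor of blood cells, over Arhgdia at 1.49 ± 0.04. The smallest of those apart were Evl over Vasp at 0.69 ± 0.12 and Rhoh over Rhoa at 0.42 ± 0.05, so in these families the general gene was expressed at a like order of magnitude.

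**Figure D2:**
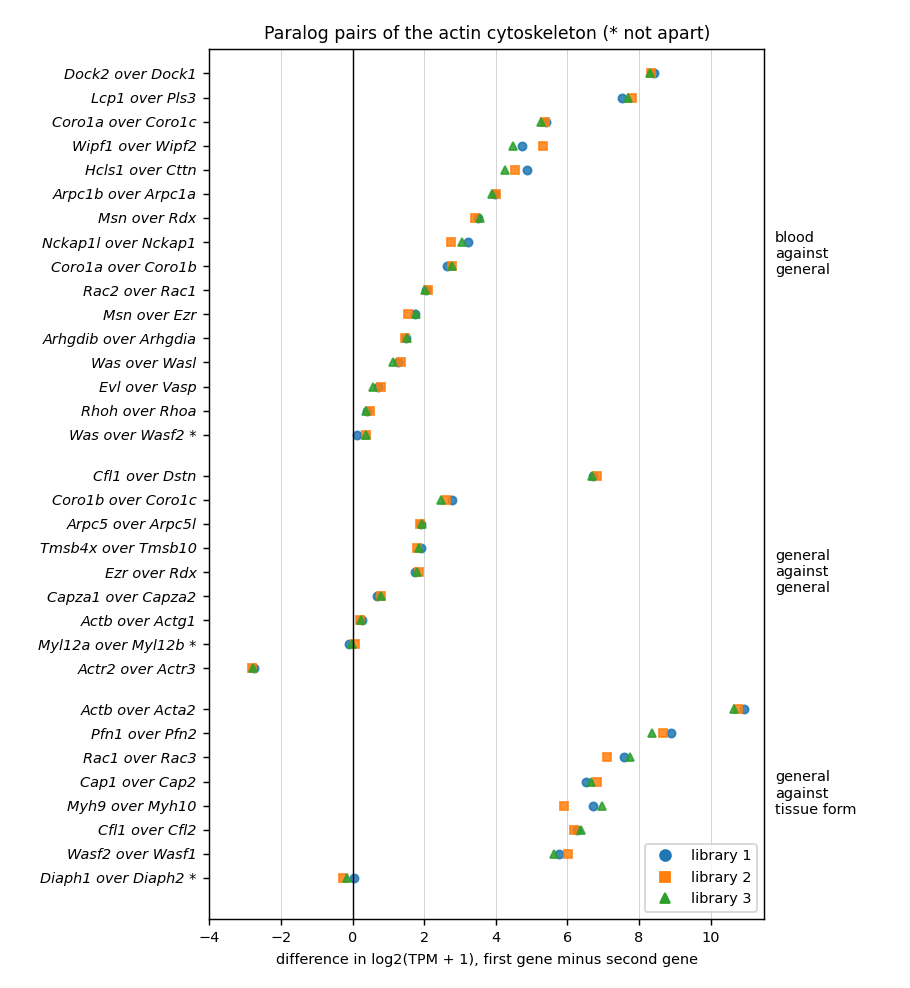
Difference in log2(TPM + 1), first gene minus second gene, for 33 pairs in libraries 1, 2 and 3 (points), by class of pair; the line at 0 marks equal levels and an asterisk a pair that was not apart. All 16 pairs classed as blood against general lie to the right of 0, from 0.28 for Was over Wasf2 to 8.36 for Dock2 over Dock1.

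Some of these differences moved with the way the genes were quantified. Evl over Vasp was -0.35 without length correction and -0.94 on the leading protein-coding transcript alone. That last setting takes the transcript with the most expected counts, Evl-206 in Evl and Rac2-201 in Rac2. Rhoh over Rhoa was 0.04 on protein-coding transcripts, because Rhoh-203, annotated as a retained intron, took 25.4%, 22.6% and 23.5% of Rhoh TPM in libraries 1 to 3. Rac2 over Rac1 was 1.51 without length correction, 1.08 on the leading coding transcripts and 0.79 in the M4 counts per kilobase. Was over Wasl was 2.02 on protein-coding transcripts, and Was over Wasf2 was -0.41 without length correction. In M4 counts per kilobase the difference was smaller in 12 of the 16 blood pairs and larger in 4. Their median was 1.22 on that scale, and 15 of the 16 stayed above 0. The values were 3.88 for Lcp1 over Pls3, 2.49 for Coro1a over Coro1c, 1.16 for Arpc1b over Arpc1a, 0.93 for Msn over Rdx, 0.79 for Arhgdib over Arhgdia, 0.30 for Coro1a over Coro1b and -0.09 for Msn over Ezr, while Was over Wasf2 was larger at 1.28. Among pairs of general genes, Arpc5 over Arpc5l was -0.24.

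In 9 pairs of general genes, 8 were apart, 7 of them with the first gene higher. Cfl1 over Dstn was the widest at 6.74 ± 0.08 and Capza1 over Capza2 at 0.75 ± 0.07 among the narrowest. Of the windows of Capza1-201, the Capza1 transcript with the most expected counts, 73.8% also occur in other genes, led by Gm3608. In the M4 counts Capza1 over Capza2 was -2.48. Of 8 pairs of a general gene and a form known from muscle, brain or other tissues, 7 were apart with the general gene higher, and Diaph1 against Diaph2 at -0.12 ± 0.15 was not. Among these, Actb over Acta2 stood at 10.79 ± 0.14, Pfn1 over Pfn2 at 8.63 ± 0.27, Rac1 over Rac3 at 7.48 ± 0.34 and Myh9 over Myh10 at 6.54 ± 0.55.

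The transcript tables showed which forms carried these levels. Transcripts annotated as protein-coding took a median of 96.5% of a gene's TPM over the 46 rows, and a median of 86.5% over detected coding genes, and 27 of the 46 exceeded 90%. Cfl2 at 33.2%, Dock2 at 54.3% and Arpc5l at 58.9% were the 3 below 60%. Dock2-206, a retained intron of 3819 bases, took 45.6%, 40.1% and 44.3% of Dock2 TPM, and the coding Dock2-201 took 51.5%, 55.4% and 52.6%. Their shares of expected counts were 32.1% and 66.1%. In Dock8, the retained intron Dock8-203 of 434 bases took 19.8%, 17.6% and 21.3% of TPM, but only 1.47% of expected counts on average. Short models weigh heavily in TPM, so each share of TPM below a long coding transcript has to be read with its share of counts.

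Rac2 shows this most plainly. Rac2-203, a model of 254 bases with an incomplete 5′ end, took 58.3%, 58.9% and 58.9% of Rac2 TPM and 10.3% of its expected counts, and the full Rac2-201 took 33.8%, 34.0% and 33.8% of TPM and 87.0% of counts. In Rac1, nearly all coding TPM was given to Rac1-202, the model with the 57-base exon printed above. It took 66.6%, 67.3% and 67.1% of the gene's TPM, and the processed transcript Rac1-204 took 32.8%, 32.3% and 32.6%. By expected counts the shares were 89.5% for Rac1-202 and 10.2% for Rac1-204. Rac1-202 ends nearer to the start of the gene than Rac1-201, with 2325 bases against 4159, so inclusion of the exon and use of the nearer 3′ end cannot be told apart in these tables. Cdc42 was read almost wholly as its ubiquitous form: Cdc42-202 took 98.7%, 98.8% and 98.9% of TPM.

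Among the other members with a second transcript of at least 10%, Myl6-205, the form without the 36 bases printed above, took 49.1%, 56.6% and 52.5% of Myl6 TPM, and Myl6-201 took 44.3%, 37.0% and 41.1%. Evl was spread over more models. The short Evl-207 of 569 bases led with 47.5%, 44.8% and 43.5%, followed by Evl-206 at 32.2%, 28.9% and 31.6%. In TPM, Capzb-202 led Capzb with 67.1% ± 1.97 and Arpc2-203 led Arpc2 with 70.0% ± 0.897. Arpc3-203 led Arpc3 with 48.2% ± 0.345, and Tmsb4x-203 led Tmsb4x with 89.1% ± 0.281. By expected counts Arpc3-203 took 43.8% and Arpc3-202 took 44.0%. Some shares differed more between libraries: Wasf2-206 took 26.9%, 24.8% and 8.39% of Wasf2, and Rdx-201 took 45.7%, 27.9% and 34.7% of Rdx.

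**Figure D3:**
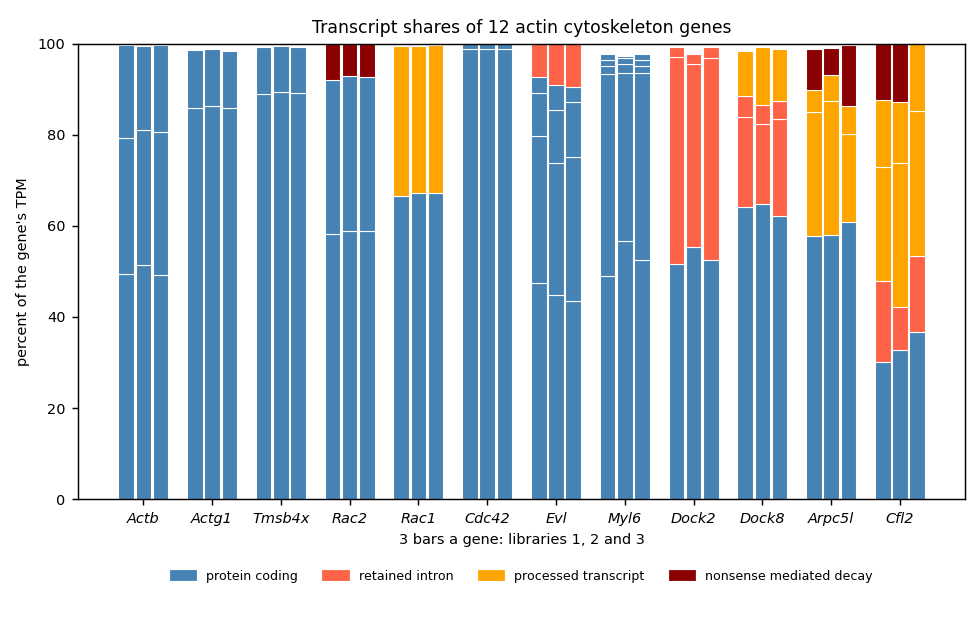
Percent of a gene's TPM by transcript in libraries 1, 2 and 3 (bars, left to right) for 12 actin cytoskeleton genes; colours give the annotated type, white lines part the transcripts, and transcripts of other types or under the listing limit leave a gap below 100. Dock2 and Cfl2 show large shares outside coding transcripts, and Cdc42 is almost wholly 1 coding transcript.

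The 2 deposited quantifications gave different weights to these genes. M4 counts reached a median of 8.31% of the M21 expected counts over the members found in both, while deeply counted genes, with 1000 expected counts or more on average, had a median of 39.2%. The share was lowest for Actg1 at 0.207%, Tmsb4x at 0.290% and Tmsb10 at 0.356%, and highest for Gsn at 75.1%. The 46 rows held 4.81% of TPM but 0.911% of M4 counts. The low share did not follow shared sequence throughout. Windows were taken from the transcript of each gene with the most expected counts. Actg1 shared 60.7% of its 50-base windows with other genes, led by the pseudogene Gm12715, and Tmsb10 63.5%, led by Gm9844. But Tmsb4x shared 0%, as did Pfn1 with 1.49% of its M21 counts and Coro1a with 4.04%. M4 counts per base did not exceed 2.12, the value of Evl, in any member. Levels here rest on the M21 tables; the treatment of duplicate and multiply aligned reads is not given in the sources used here.

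**Figure D4:**
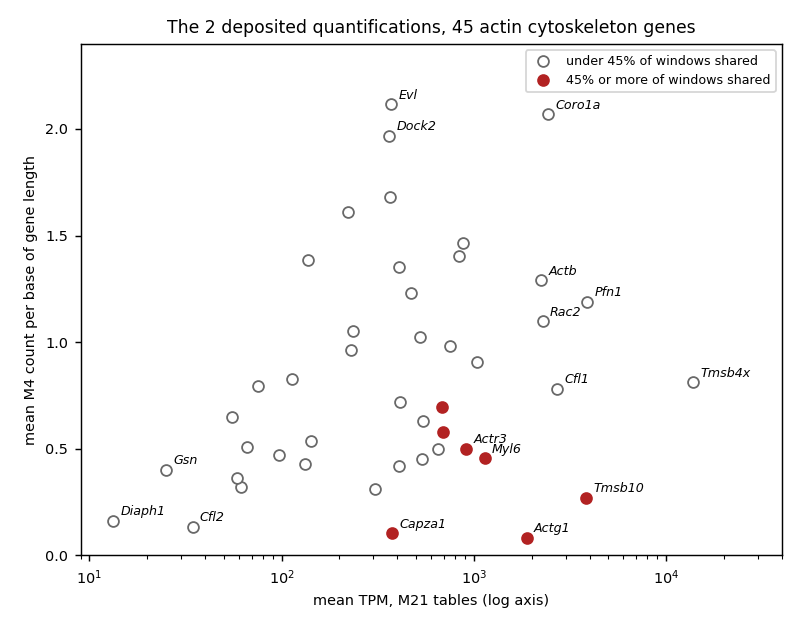
Mean M4 count per base of gene length against mean TPM of the M21 tables (log axis) for 45 actin cytoskeleton genes. Filled points share at least 45% of their 50-base windows with other genes, on the transcript with the most expected counts. Tmsb4x has the highest TPM but an M4 count of 0.812 per base, below Evl at 2.12 and Coro1a at 2.07.

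Between the libraries, most members differed by little. A chi-square test of expected counts scaled by TMM, with Benjamini-Hochberg adjustment over all genes tested, called 44 of the 46 rows different between libraries, or 95.7%, against 77.2% of the 18253 genes tested and 84.8% of the 6731 deeply counted genes. The test measures counting noise only, so at such counts it calls small differences. Myl6, with an adjusted p of 0.467, and Capzb, with 0.148, did not pass. With the highest library also required to lie at least 25% above the lowest, 4 of the 46 were called, or 8.70%, against 50.9% of all genes tested and 22.1% of deeply counted genes. Leaving out library 2 gave 29 called members, or 63.0%, against 49.1% of the genes then tested. The M4 counts turned the order of these shares round, with 19 of 45 members called, or 42.2%, against 52.1% of 12056 genes. Of the 19, 1 met the margin, and the share of all genes that met it in M4 counts was not counted. The coefficient of variation of TPM ran from 1.35% to 17.9%, with a median of 5.34%, while the 6548 deeply counted coding genes that were detected had a median of 8.24%.

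The 4 genes past that margin, Gsn, Ezr, Cfl2 and Evl, were all highest in library 2. Of all genes tested, 18.0% met the margin with their highest value in library 2, as did 10.8% of deeply counted genes. Gsn had a ratio of 1.45 between its highest and lowest scaled counts (chi-square test, adjusted p = 7.0e-21) and log2 differences of 0.53 from library 1 and 0.09 from library 3. Ezr had a ratio of 1.37 (adjusted p = 3.5e-175), with 0.45 and 0.31 on the same scale, and its 283 TPM in library 2 stood clear of 209 and 211 TPM in the others. Cfl2 had a ratio of 1.30 (adjusted p = 4.5e-10), with 0.25 and 0.38. Evl had a ratio of 1.26 (adjusted p = 1.7e-60), with 0.33 and 0.31. Leaving out library 1 or library 2 left 1 gene past the margin, and leaving out library 3 left 3. The share of all genes past the margin was not counted with a library left out, so this drop says nothing particular to the members. The summed TPM of 10 muscle genes was 24.0, 41.5 and 30.6 in libraries 1 to 3, of which Actg2 alone made 12.8, 29.9 and 22.0 TPM. The other 9 muscle genes summed to 11.2, 11.6 and 8.63 TPM, and 5 stromal genes to 2.01, 1.04 and 1.34 TPM. Actn2 made up much of the 9-gene sum, with 7.02, 5.13 and 5.42 TPM. Of the muscle genes 7 were tested and all 7 were called with the margin, beside 50.9% of all genes tested. Each of the 7 averaged 580 expected counts or fewer, so none was deeply counted. Actn2 was highest in library 1 and the rest of them, Actg2 included, in library 2. Apart from Actg2, those highest in library 2 averaged 1.89 TPM or less. The part of muscle transcripts in the Gsn difference was not tested.

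Small differences shared a direction. After scaling, 29 of the 46 rows, or 63.0%, were highest in library 2, against 44.3% of deeply counted genes and 37.3% of all genes tested. The median log2 difference of library 2 from library 1 was 0.09 for the members and 0.05 for deeply counted genes, and that of library 2 from library 3 was 0.04 and 0.02. Both actins were exceptions, with log2 differences of library 2 from library 1 of -0.05 for Actb and -0.02 for Actg1, and from library 3 of -0.13 and -0.12. Dock8 had -0.11 and -0.17. The libraries share 1 label and no condition separates them.

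**Figure D5:**
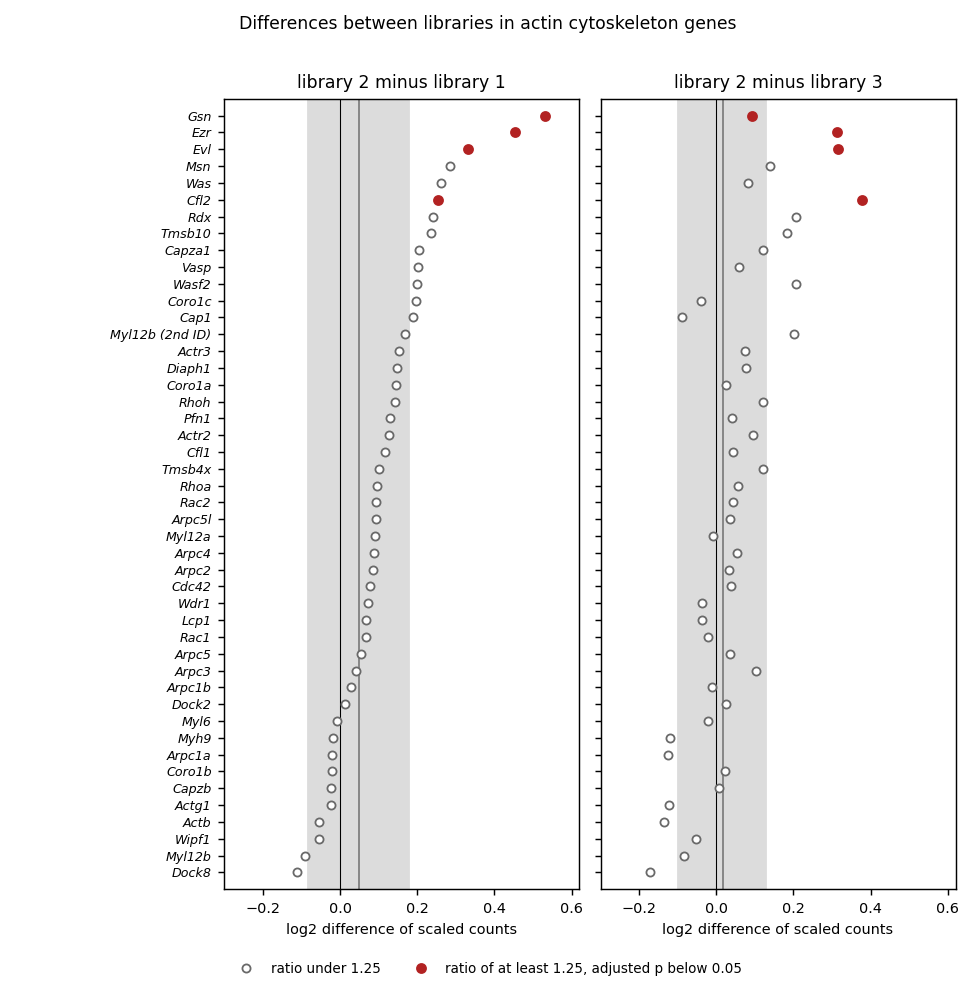
Log2 difference of scaled expected counts, library 2 minus library 1 (left) and library 2 minus library 3 (right), for 46 actin cytoskeleton rows; the grey band is the middle range (quartiles) and the grey line the median of the 6731 deeply counted genes. Filled points are the 4 called genes whose highest library lay at least 25% above the lowest, Gsn, Ezr, Evl and Cfl2, which lie to the right of 0 in both panels.

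Other genes of the actin system were read from lists. Of 20 further regulators made mainly in blood cells, 19 were detected, with a median of 149.6 TPM, led by Arhgdib at 1776 TPM, Arhgap45 at 653 TPM, Capg at 652 TPM and Fyb at 491 TPM. Abi3 at 47.3 TPM and Pstpip2 at 1.09 TPM were the lowest. Of 36 further general regulators, 31 were detected, with a median of 33.7 TPM, led by the tropomyosin Tpm3 at 707 TPM, Arhgdia at 630.5 TPM, Tpm4 at 248 TPM and Capza2 at 223 TPM. Dock1 at 0.107 TPM and Tpm2 at 0.03 TPM closed that list. The first list was drawn up for expression in blood, so its higher median is no independent evidence. Of 32 formins, small GTPases and their effectors, 26 were detected, with a median of 17.3 TPM, led by Rhog at 235 TPM, Rhof at 180.4 TPM, the scaffold Iqgap1 at 172 TPM and the kinase Rock1 at 164 TPM, with Myh14 at 0.153 TPM and Fmnl2 at 0.0267 TPM lowest.

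By the chi-square test with the margin of 25%, 3 of 20 tested genes of the blood list differed between libraries. So did 11 of 33 of the general list and 14 of 29 of the list of formins and effectors. By the same rule 50.9% of all genes tested and 22.1% of deeply counted genes differed, and each list held genes above and below that depth. Of 10 muscle actins and their partners, 3 were detected: Actg2 at 21.6 TPM, Actn2 at 5.86 TPM and Tagln at 1.89 TPM. Acta1 at 0.897 TPM came next, and Actn3 at 0.18 TPM and Cnn1 at 0.0867 TPM were lowest.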

How the data were processed

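Each of the 3 libraries came with gene and transcript tables quantified by the authors against GENCODE annotation M21 on mm10, and a gene table for annotation M4. Per the file headers, the M21 tables hold expected counts and a signal scaled to TPM before deposit, with posterior mean TPM. They also hold a lower and an upper bound column, which enclosed the posterior mean TPM, and mostly not the TPM, of the members. The deposited transcript tables give each transcript's percent of its gene's TPM, per the file headers. M4 tables, as deposited, list raw counts in whole numbers. Aligner, counting program and the level of the bounds are not given in the sources used here. Rows that name no gene (0.170%, 0.170% and 0.218% of expected counts) were left out of sizes and tests.

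Symbols, biotypes and coordinates came from the M21 annotation, in which all 55536 identifiers were found. Of 22457 M4 genes, 22195 matched by identifier. Where a symbol had several identifiers, pairs used the one with the highest mean count. Shared windows are runs of 50 bases of 1 transcript per gene, that with the most expected counts, found in any transcript of another gene. Expected counts were rounded and scaled by TMM (edgeR 4.0.16, R 4.3.3), and the chi-square test ran on the 18253 genes that averaged 10 counts or more, after a test on simulated data. Pairs were compared on log2(TPM + 1). Such folds understate changes of low genes. Python 3.11.15 with scipy 1.17.1 served for the remaining steps. Alternatives included DESeq2 1.42.0 size factors, total counts, no count filter, another pseudocount, M4 counts and leaving out each library.

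The members, pairs and lists were chosen with earlier results of these data known; 1 pair is not reported here. Named genes are all members, both genes of each pair, the 4 highest and 2 lowest of each list of other actin genes, the highest gene of each cell type list and leading transcripts of members whose second transcript takes at least 10%. Genes that share windows with members, Foxp3 and markers at 0 were named after their values were seen. Total expected counts were 31665170 to 37810591 per library, and chi-square p-values cover counting error only.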

Additional observations from a re-analysis of the deposited data

How the results depend on the processing

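No paired analysis was possible because the 3 libraries form 1 group. The count of 30 pairs apart was 30 to 32 under every alternative, replicates left out included. Directions turned in these pairs. On protein-coding transcripts only, Myl12a minus Myl12b was 0.11 and Diaph1 minus Diaph2 0.51. Without length correction, Was minus Wasf2 was -0.41, Evl minus Vasp -0.35, Actb minus Actg1 -0.065 and Diaph1 minus Diaph2 0.056. In M4 counts per kilobase, Msn minus Ezr was -0.094, Arpc5 minus Arpc5l -0.24, Capza1 minus Capza2 -2.48 and Myl12a minus Myl12b 0.26. On the leading protein-coding transcript alone, chosen after seeing the data, Evl minus Vasp was -0.94, Actb minus Actg1 -0.54, Myl12a minus Myl12b 0.17 and Diaph1 minus Diaph2 0.70. Leaving out a library gave Myl12a minus Myl12b -0.055 to 0.035, the positive end without library 1. The cause was not tested. Members that differed between libraries numbered 44 of 46, beside 14094 of 18253 genes in all. M4 counts gave 19 of 45 members, or 42.2%, beside 6286 of 12056 genes, or 52.1%, so the members' share fell below that of all genes. Leaving out a library gave 29 to 38 of 46 members, 63.0% to 82.6%, beside 9267 to 11076 genes, 49.1% to 60.9% of those tested. With the margin of 25%, the 4 members became 1 in M4 counts and 1 to 3 with a library left out. The share of all genes past the margin was not counted in those settings, so these counts have no background. The members' share of 4.81% of TPM was 3.76% of expected counts and 0.911% of M4 counts, and 4.69% to 4.94% with a library left out. Depth limits the low paralogs, with Cap2 and Wasf1 at 0 in library 2.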
